A study of Mus musculus with 15 samples.

Results

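The circadian clock genes described here are 10 transcripts of the core loop and its first outputs: Arntl, Npas2, Nr1d1, Nr1d2, Per2, Per3, Dbp, Tef, Hlf and Nfil3. They were found by gene name in the expression table, where each matched 1 of 22526 symbols. They were chosen by their FPKM in these same 15 libraries, so their levels and differences are given as a description. Limma calls on the 10 are likewise a description and not a test of them. Bulk RNA sequencing was done on cerebral vessels of wild-type C57BL/6 mice aged 8 months, in 15 libraries that form 3 groups of 5. All mice had a stereotactic injection of an adeno-associated virus (AAV): GFP-Veh mice received AAV-GFP and saline, GFP-AL mice AAV-GFP and AngII plus L-NAME, and LH3-AL mice AAV-LH3 and AngII plus L-NAME. AngII is angiotensin II, L-NAME blocks nitric oxide synthase, and LH3 is the lysyl hydroxylase encoded by Plod3. No group had AAV-LH3 with saline. The sources used here do not give the promoter of the vectors, the time of day of perfusion or the length of treatment. They also do not say whether each library is 1 mouse, so any p-value rests on the spread between these libraries, which may be technical.

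The mammalian clock is a feedback loop that runs in nearly every cell, vessel wall cells included. The activators BMAL1 (encoded by Arntl) and CLOCK or NPAS2 bind E-boxes and drive Per, Cry, Nr1d and Dbp genes. PER and CRY proteins then inhibit the activators, and the NR1D (REV-ERB) receptors repress Arntl and Npas2 through elements shared with ROR receptors. DBP, TEF and HLF are PAR bZIP activators that bind D-boxes, and NFIL3 is a repressor that competes for the same sites. In tissues with a running clock Dbp, Tef, Hlf, Nr1d1, Nr1d2, Per2 and Per3 peak in neighbouring parts of the day, here called in-phase, and Arntl, Npas2 and Nfil3 peak on the other side of the cycle, here called opposite-phase. Relative levels of the sets therefore shift with the hour of sampling as well as with the state of the clock.

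The promoter sequences below are shown because they hold the 3 kinds of element just named. RefSeq start-site windows on GRCm38.p6, from 250 bases before to 50 after the start, were present for 9 of the 10 genes (none for Per2). Both strands were searched for the E-box CACGTG, the D-box TTANGTAA and the ROR/REV-ERB element TAGGTCA, no match of which overlapped another in the windows shown. The 9 genes had 11 windows in all. Tef held an E-box in each of its 2 windows, Per3 a pair of D-boxes, and Nfil3 a ROR/REV-ERB element. Arntl held that element in 1 of its 2 windows, beginning 30 bases after that start. Of 32851 windows of that length, 7.15% held the E-box, 2.32% the D-box and 2.61% the ROR/REV-ERB element. The other 5 genes with a window held none of these letters in it. Among the clock genes searched outside the 10, Ciart, a repressor of the BMAL1 complex, held 3 E-boxes. Per1, Cry1, Bhlhe41 and Tspan4 held 1 E-box each, and Rorb a D-box. The stretches below read 5′ to 3′ on the gene's strand, with matches in capitals. They lie at chr4:151044786-151044885 (minus strand) for Per3, chr15:81811234-81811333 (plus) for Tef, chr13:52981040-52981139 (minus) for Nfil3, chr3:95882259-95882358 (minus) for Ciart and chr7:113207531-113207557 (plus) for Arntl. A match describes letters and is not evidence of binding.
Per3: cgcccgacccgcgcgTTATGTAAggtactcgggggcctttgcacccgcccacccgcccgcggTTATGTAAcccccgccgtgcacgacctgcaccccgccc
Tef: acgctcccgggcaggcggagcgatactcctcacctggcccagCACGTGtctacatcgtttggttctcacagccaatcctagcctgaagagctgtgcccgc
Nfil3: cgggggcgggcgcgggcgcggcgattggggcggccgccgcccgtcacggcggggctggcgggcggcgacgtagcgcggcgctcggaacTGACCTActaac
Ciart: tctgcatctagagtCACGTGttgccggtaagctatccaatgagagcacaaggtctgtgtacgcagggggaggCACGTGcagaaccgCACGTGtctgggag
Arntl: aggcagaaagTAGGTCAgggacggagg

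Sequencing depth, inferred from whole-read steps, was between 13.54 and 29.78 M (mega) fragments for GFP-Veh libraries, 21.16 and 27.79 M for GFP-AL, and 18.05 and 31.59 M for LH3-AL, of which replicate 1 alone was under 26.88. In a principal component analysis of log2(FPKM + 1) values, GFP-AL replicates 2 and 3 stood farthest out on the first component (49.4 and 58, against 19.8 to 27.9 in the other GFP-AL libraries). Endothelial markers (5 genes) summed to 1288.7 to 2500.9 FPKM over the 15 libraries and mural markers (5 genes) to 968 to 1765.8, and the lowest of each, Kdr and Myh11, averaged 43.4 and 56.6 FPKM. Neuronal (5 genes, 47.8 to 108 FPKM) and astrocyte markers (5 genes, 146 to 312) were present at lower sums, and choroid plexus markers (5 genes, 1963 to 9134) reached their highest sum in GFP-Veh replicate 2 although the protocol clears that tissue. Several sums moved with the groups. Mural markers summed to 968 to 1399.4 FPKM in GFP-AL and 1398.9 to 1765.8 in GFP-Veh, and choroid plexus markers to 1963 to 3082.5 and 3632.9 to 9134. Oligodendrocyte markers (5 genes) summed to 182 to 398 FPKM in GFP-AL and 404 to 637 in GFP-Veh, and microglial markers (5 genes) to 69.7 to 92.1 and 35.5 to 68.8. Neutrophil markers (3 genes) summed to 94 to 843 FPKM in GFP-AL, 70 to 208 in GFP-Veh and 31.9 to 54.9 in LH3-AL, and red cell markers (5 genes) to 3055.7 to 15591.1, 1193.9 to 2995.1 and 3868.6 to 8311.8. The part of these cells in the group differences below was not tested. In bulk tissue, fewer cells of a type and less RNA per cell cannot be told apart.

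Arntl, the activator gene at the centre of the loop, was high in all GFP-Veh libraries, low in all GFP-AL libraries and uneven in LH3-AL. It was read at 27, 22.9, 29.1, 24.7 and 25.4 FPKM in GFP-Veh replicates 1 to 5, and at 11.9, 13.3, 7.95, 8.93 and 14.4 FPKM in GFP-AL. In LH3-AL it stood at 28.8 and 20.8 FPKM in replicates 1 and 2 and at 7.99, 8.72 and 8.36 in replicates 3 to 5. The GFP-Veh and GFP-AL libraries did not overlap, whereas LH3-AL held both levels: replicate 1 lay inside the GFP-Veh range, replicate 2 between the groups, and replicates 3 to 5 at or near the lowest GFP-AL values. Group means were 25.8 ± 2.35 FPKM in GFP-Veh, 14.9 ± 9.44 in LH3-AL and 11.3 ± 2.76 in GFP-AL (SD, n = 5), and the LH3-AL and GFP-AL means lay within the LH3-AL spread of each other. Npas2, which can take the place of CLOCK as the partner of BMAL1, kept the same order. It ran from 3.32 to 4.51 FPKM in GFP-Veh and from 0.955 to 2.32 in GFP-AL, with no overlap. The 5 LH3-AL libraries gave 4.37, 4.13, 1.98, 2.43 and 1.82 FPKM, with replicates 1 and 2 both inside the GFP-Veh range. Arntl lies on chromosome 7 at 113207465 to 113314126 (plus strand) and Npas2 on chromosome 1 at 39193731 to 39363236 (plus strand), both in the GENCODE M21 annotation of GRCm38, a build other than the mm8 that the submitters' processing notes name.

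The PAR bZIP activators had the opposite layout. Dbp, the output gene with the widest daily swing in most tissues, read 3.57, 6.61, 3.47, 4.93 and 5.18 FPKM in GFP-Veh replicates 1 to 5 and 9.33, 5.82, 9.65, 10.2 and 9.28 in GFP-AL. LH3-AL replicates 1 and 2 gave 7.78 and 13.3 FPKM and replicates 3 to 5 gave 26.2, 28.4 and 26.4. Every LH3-AL library was above every GFP-Veh library, and GFP-AL replicate 2 was the single GFP-AL library inside the GFP-Veh range. Tef read 4.34, 3.51, 2.4, 5.13 and 7.83 FPKM in GFP-Veh, and 12.7, 7.72, 9.37, 12.4 and 8.24 in GFP-AL. In LH3-AL it was 6.42, 6.06, 17, 18.5 and 17.2 FPKM, so replicates 1 and 2 lay within the GFP-Veh range and replicates 3 to 5 above every other library. Hlf was the steadiest of the family in GFP-Veh, at 6.03 to 6.96 FPKM. It read 7.54, 3.06, 8.75, 7.71 and 8.44 FPKM in GFP-AL, and 8.46, 7.66, 11.7, 13.5 and 8.39 in LH3-AL. GFP-AL replicate 2 was the lowest of the 15 libraries for Hlf, and LH3-AL replicate 5 sat with replicates 1 and 2 here and not with 3 and 4. In the annotation 539 exon bases of Dbp overlap those of Sphk2 on the other strand, and the sources do not state strandedness. Mean Sphk2 was 4.96 ± 0.513 FPKM for GFP-Veh, 4.42 ± 0.964 for GFP-AL and 4.8 ± 0.301 for LH3-AL (SD, n = 5), and it ran from 4.52 to 5.28 over the LH3-AL libraries where Dbp ran from 7.78 to 28.4.

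Nfil3, the repressor that competes with the PAR bZIP factors, parted from Arntl in GFP-AL. It read 5.15, 8.01, 5.29, 4.7 and 5.5 FPKM in GFP-Veh, and 5.64, 21.2, 14.2, 11.1 and 11.4 in GFP-AL. LH3-AL gave 6.06 and 5.57 FPKM in replicates 1 and 2 and 1.68, 1.82 and 2.59 in replicates 3 to 5, the last 3 below every other library. Within LH3-AL Nfil3 was thus low where Arntl and Npas2 were low, while in GFP-AL it was above the GFP-Veh range in 4 of 5 libraries in which Arntl and Npas2 were below theirs. Nfil3 is also known to be induced by cytokines and other stimuli outside the clock.

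The REV-ERB genes followed the PAR bZIP genes. Nr1d1 read 26.4, 27.6, 28.6, 28.7 and 33 FPKM in GFP-Veh and 39.6, 26.4, 54.3, 38 and 47.2 in GFP-AL. In LH3-AL it was 37.4, 50.3, 81.3, 93.8 and 58.5 FPKM, all above the GFP-Veh range, with replicates 3 to 5 above every other library. Nr1d2 had a smaller range, 13 to 21.3 FPKM in GFP-Veh and 15.9 to 29.7 in GFP-AL. LH3-AL replicates 1 and 2 gave 19.2 and 20.1 FPKM for Nr1d2, and replicates 3 to 5 gave 34.3, 34.7 and 28.6. The groups overlapped for Nr1d2 in each comparison, and neighbouring group means (18.1 ± 3.11, 22.5 ± 5.51 and 27.4 ± 7.48 FPKM; SD, n = 5) lay within their spread. Nr1d1 shares 263 exon bases with Thra on the other strand. Mean Thra was 44.1 ± 2.5 FPKM for GFP-Veh, 32.2 ± 3.98 for GFP-AL and 37.8 ± 6.13 for LH3-AL (SD, n = 5), an order unlike that of Nr1d1.

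The Period genes, whose proteins close the loop as inhibitors, differed from each other. Per2 read 9.77, 4.81, 6.43, 8.74 and 10.8 FPKM in GFP-Veh and 14.2, 9.9, 11.8, 19.9 and 18.9 in GFP-AL. In LH3-AL it was 6.15 and 8.77 FPKM in replicates 1 and 2, within the GFP-Veh range, and 20.1, 19.4 and 17.1 in replicates 3 to 5, within or just above that of GFP-AL. Per3 read 5.05, 4.14, 5.78, 8.17 and 7.32 FPKM in GFP-Veh and 8.11, 3.13, 5.39, 6.79 and 8.16 in GFP-AL, with much overlap. In LH3-AL replicate 1 was the lowest at 6.76 FPKM and replicates 2 to 5 lay together at 9.33 to 9.86, so Per3 did not repeat the split seen in Per2. Mean Per3 was 6.09 ± 1.64, 6.32 ± 2.11 and 9.11 ± 1.33 FPKM in the groups (SD, n = 5).

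**Figure D1:**
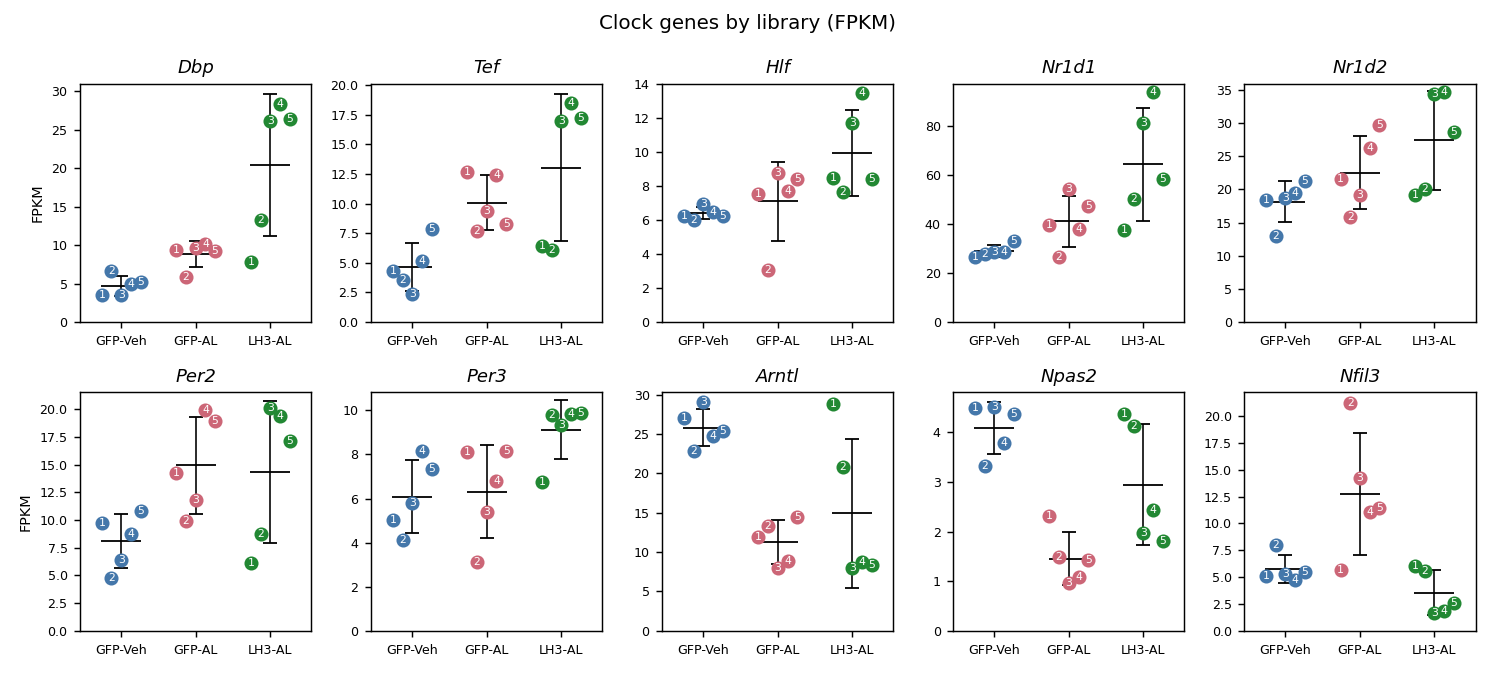
Level of each clock gene (FPKM, linear axis from 0) in the 15 libraries, with replicate numbers in the points and the mean ± SD of 5 libraries per group as bars. LH3-AL replicates 1 and 2 sit at 28.8 and 20.8 FPKM for Arntl and replicates 3 to 5 at 7.99 to 8.72; Dbp, Tef and Per2 are laid out the other way.

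In-phase and opposite-phase genes were then read together in each library. The phase index is the mean log2(FPKM + 1) of the 7 in-phase genes minus that of the 3 opposite-phase genes. It was -0.23 to 0.26 in GFP-Veh. GFP-AL replicates 1, 3, 4 and 5 gave 1.17, 1.11, 1.31 and 1.03, and replicate 2 gave -0.03, inside the GFP-Veh range. LH3-AL gave 0.14 and 0.62 in replicates 1 and 2 and 2.5, 2.46 and 2.18 in replicates 3 to 5. The index thus had its 3 highest values in LH3-AL replicates 3 to 5, while LH3-AL replicate 1 lay inside the GFP-Veh range and replicate 2 between GFP-Veh and the 4 higher GFP-AL libraries. Group means differed by 0.92 between GFP-AL and GFP-Veh and by 0.66 between LH3-AL and GFP-AL. Both values turn on Nfil3, which parted from Arntl in GFP-AL. With Arntl and Npas2 alone on the opposite-phase side, a choice made after seeing the data, the index was -0.58 to -0.03 in GFP-Veh and 1.17, 0.6, 1.73, 1.78 and 1.37 over GFP-AL replicates 1 to 5. Every GFP-AL library, replicate 2 included, then lay above the GFP-Veh range. LH3-AL replicates 1 to 5 gave -0.14, 0.39, 2.18, 2.12 and 2.01 on that index. The difference became 1.6 for GFP-AL against GFP-Veh and -0.02 for LH3-AL against GFP-AL, so the latter did not stand without Nfil3, while the parting within LH3-AL did. The SD of the index was lowest in GFP-Veh at 0.25, then 0.54 for GFP-AL and 1.11 for LH3-AL (n = 5 each). The ratio of Dbp to Arntl FPKM showed the same spread, at 0.119 to 0.288 in GFP-Veh and 0.439 to 1.21 in GFP-AL. It was 0.27 and 0.642 in LH3-AL replicates 1 and 2 and 3.28, 3.25 and 3.15 in replicates 3 to 5.

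In 13 of the 15 libraries the in-phase mean and the opposite-phase mean lay on opposite sides of their own group's mean, and in 11 with Nfil3 left out. The exceptions to the former were GFP-Veh replicate 5 (0.28 and 0.01 on the log2 scale) and GFP-AL replicate 5 (0.22 and 0.11). Some counted libraries also had a mean near 0. Among them were GFP-Veh replicates 1 (-0.05 and 0.02) and 2 (-0.2 and 0.02) and GFP-AL replicate 3 (0.03 and -0.16). The opposition was clearest in LH3-AL. Over the 10 GFP-Veh and GFP-AL libraries, group means subtracted, the correlation with the index of the other 9 genes was -0.28 for Arntl, -0.26 for Nfil3 and 0.14 for Npas2. In LH3-AL all 3 opposite-phase genes were above their group mean in replicates 1 and 2 and below it in replicates 3 to 5. All 7 in-phase genes were above their group mean in LH3-AL replicates 3 and 4, 5 in replicate 5, 1 in replicate 2 and none in replicate 1. The SD of Arntl over the LH3-AL libraries was 0.81 on the log2 scale, larger than that of 99.1% of 13082 genes in those libraries (median SD 0.15). Dbp (0.76), Tef (0.75), Per2 (0.71) and Nfil3 (0.67) exceeded 99, 98.9, 98.6 and 98.4% of genes. Hlf (0.32) and Per3 (0.21) were the lowest of the 10, at 87.2 and 68.7%. The 10 were chosen by their values in these libraries, so the ranks only describe them. In GFP-Veh Arntl had an SD of 0.13 and Nr1d1 of 0.12, below the median gene there (0.19), whereas Tef (0.51) and Per2 (0.42) were above that of 95.6 and 91.6% of genes.

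**Figure D2:**
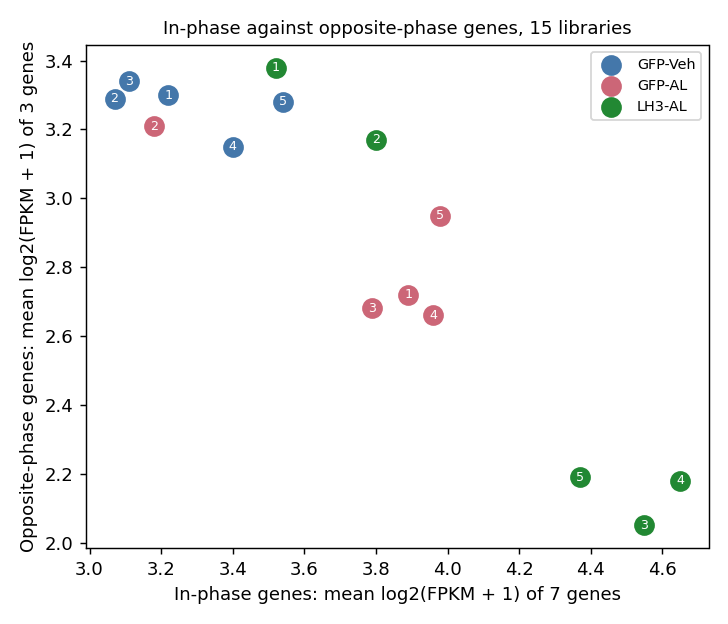
Mean log2(FPKM + 1) of the 7 in-phase genes (x axis) against that of the 3 opposite-phase genes (y axis), 1 point per library with its replicate number. GFP-Veh lies at upper left with LH3-AL replicate 1 and GFP-AL replicate 2 nearby, and LH3-AL replicates 3 to 5 lie at lower right, at 4.37 to 4.65 on the x axis and 2.05 to 2.19 on the y axis.

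Depth and the marker sums other than the microglial overlapped between LH3-AL replicates 1 and 2 and replicates 3 to 5, while the first principal component parted them. On that component replicates 1 and 2 were at -22.2 and -26.9 and replicates 3 to 5 at -11.7, -18.5 and -6.44. Replicate 1 was the shallowest of the group at 18.05 M fragments, while replicate 2 at 28.1 M lay among replicates 3 to 5. The endothelial marker sum was 1540.5 and 1365.8 FPKM in replicates 1 and 2 and 1397, 1294.3 and 1735.8 in replicates 3 to 5. The mural sum was 1672.1 and 1223 against 1702.2, 1574.1 and 1363.9, and the microglial sum was 52.6 and 53.4 against 52.3, 49.7 and 47.5, a small difference with no overlap. The oligodendrocyte sum was highest in replicate 2 (701, against 282 to 386 in the others). The hour of perfusion is not given, so a difference in collection time and a difference in the clock of the vessels cannot be told apart.

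GFP-AL against GFP-Veh compared the drugs with saline under the control virus. The hour of perfusion is not given, so in each group comparison here collection time and treatment cannot be told apart. As fitted with limma on log2(FPKM + 1), Tef was higher by 1.02 ± 0.31 and Nfil3 by 0.94 ± 0.31, and Arntl and Npas2 were lower, at -1.15 ± 0.29 and -1.07 ± 0.19 (SE). These 4 of the 10 genes were past an adjusted p of 0.05, beside 28.6% of all 13082 genes tested. The 10 were chosen on these values, so such calls describe them and do not test them. Dbp (0.78 ± 0.29) and Per2 (0.81 ± 0.30) stood just outside that threshold, and Nr1d1 (0.46 ± 0.22), Nr1d2 (0.28 ± 0.20), Hlf (0.07 ± 0.21) and Per3 (0.02 ± 0.21) further out. The median over the 10 was 0.37, with -0.09 over all genes. Arntl and Npas2 were the members whose groups did not overlap, both lower in GFP-AL, which held for 10.1% of all genes (16.7% in either direction). With log2 depth as a covariate Tef (0.50) and Arntl (-0.87) left the threshold; depth was lowest in GFP-Veh replicates 1 to 4, and its part in the result was not tested. Tef also left it without GFP-Veh replicate 3 (0.86), and Nfil3 without any 1 of GFP-Veh replicates 1, 3, 4 and 5 or GFP-AL replicates 2 to 5 (0.74 to 0.96). Both left it without the 3 libraries that stood apart, GFP-AL replicates 2 and 3 and GFP-Veh replicate 2 (1.09 and 0.70). Dbp entered it without GFP-Veh replicate 2 (0.89), GFP-AL replicate 2 (0.91) or LH3-AL replicate 1 (0.78), which adds to the shared spread, Per2 without GFP-AL replicate 2 (0.93) or LH3-AL replicate 1 (0.81), and Nr1d1 without GFP-AL replicate 2 (0.61). Dbp also entered it with a pseudocount of 0.1 (0.90), median-of-ratios scaling (0.87), quantile normalization (0.84) and a fit of these groups alone (0.78), and Per2 with that scaling (0.90) and that fit (0.81). Nfil3 left it with no filter on low values (0.94).

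Clock genes outside the 10 were tested in the same fit. Their lists were also chosen with earlier results of these data known, so they are not an independent check. Cry1, a strong inhibitor of the BMAL1 complex, rose in GFP-AL from 8.62 ± 1.12 to 16.2 ± 1.19 FPKM (SD, n = 5), a log2 change of 0.85 ± 0.13 (SE; limma adjusted p = 2.34e-04), with no overlap. Its relative Cry2 rose by 0.48 ± 0.13 (adjusted p = 0.0125), and Ciart by 1.23 ± 0.26 (adjusted p = 0.00317). Bhlhe40 (DEC1), which represses E-box genes and responds to hypoxia and cytokines, rose by 0.97 ± 0.19 (adjusted p = 0.00197). Clock fell by 0.48 ± 0.16 (adjusted p = 0.0316), read at 3.28 to 4.1 FPKM in GFP-Veh and 0.936 to 3 in GFP-AL. The Clock call was lost without any 1 of GFP-Veh replicates 1, 3, 4 and 5 (-0.49 to -0.43, adjusted p = 0.0533 to 0.0722), with depth as a covariate (0.0731) and in a fit of these groups alone (0.0821). Per1 did not pass (0.30 ± 0.21, adjusted p = 0.291). In all, 4 of 10 tested core genes rose and 1 fell, beside 10.8% of all genes called higher and 17.7% called lower. Bhlhe41, Rora and Arntl2 had differences of -0.15 to 0.21 with limma adjusted p of at least 0.38.

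Among modifiers of clock proteins 2 of 11 rose in GFP-AL: the casein kinase gene Csnk1d (0.41 ± 0.11, limma adjusted p = 0.0116) and Timeless (0.59 ± 0.17, adjusted p = 0.0152), best known for its part in DNA replication. Among 7 outputs Tspan4, a tetraspanin that cycles in many mouse organs, rose from 9.34 ± 2.36 to 26.4 ± 2.31 FPKM (1.43 ± 0.18, adjusted p = 5.50e-05). The deubiquitinase gene Usp2, the kinase gene Wee1 and the NAD synthesis gene Nampt did not pass (-0.34, -0.14 and -0.27). In total 7 of the 28 tested genes of these lists were higher and 1 lower, a share close to the 28.6% called over all genes, and their median was -0.01. Cry2 left the threshold with depth as a covariate (0.37, adjusted p = 0.129). Without the 3 libraries that stood apart 5 genes passed, and Cry2 (0.40, 0.0752), Csnk1d (0.25, 0.0539) and Timeless (0.33, 0.0662) did not. Nono, Btrc and Gsk3b lay near the threshold at -0.22, -0.25 and -0.24. Nono passed without GFP-AL replicate 1, 4 or 5 (-0.26 to -0.25), Btrc without GFP-AL replicate 2 (-0.30) and Gsk3b without GFP-Veh replicate 2 (-0.33). Nono also passed with either other filter on low values (-0.22) and with quantile normalization (-0.25).

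**Figure D3:**
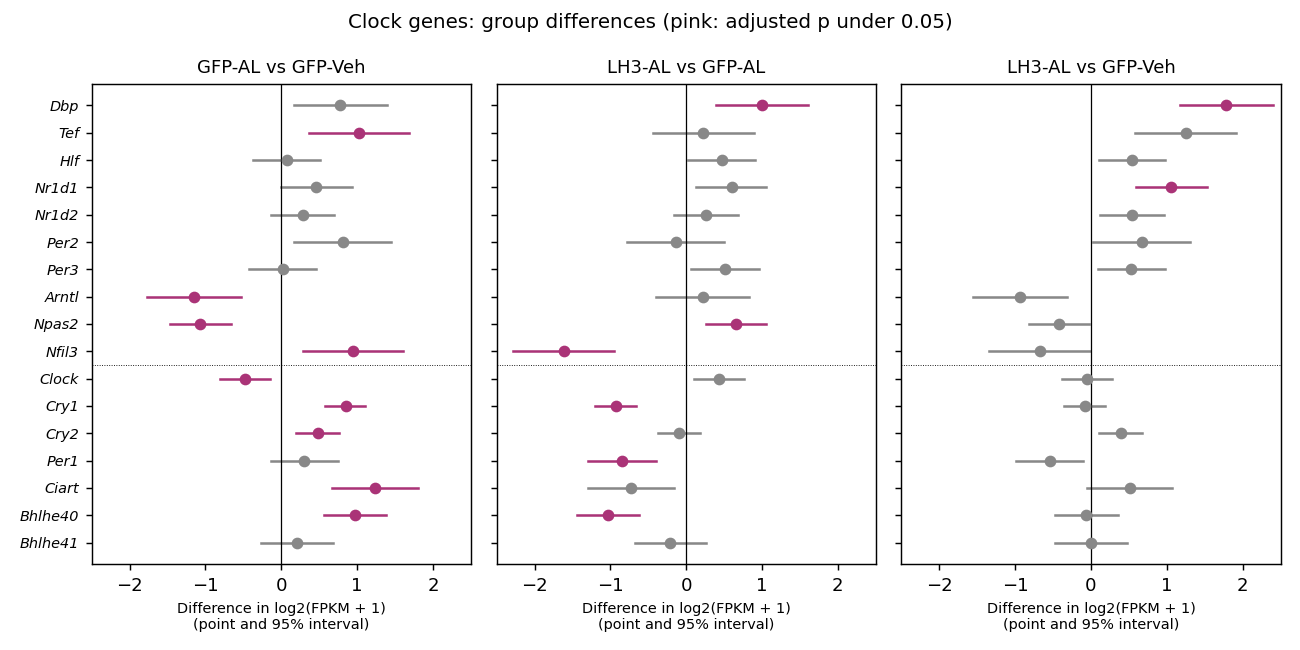
Difference in log2(FPKM + 1) with its 95% interval (x axis) for the 10 clock genes above the dotted line and 7 other core genes below it, in the 3 comparisons. Pink marks adjusted p under 0.05; in GFP-AL against GFP-Veh Arntl is at -1.15 and Cry1 at 0.85, and in LH3-AL against GFP-AL Cry1 is at -0.93.

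LH3-AL against GFP-AL compared AAV-LH3 with AAV-GFP in drug-treated mice, with the same limit on collection time. It shares the GFP-AL libraries with the comparison above. Dbp was higher in LH3-AL by 1.00 ± 0.29, Npas2 by 0.66 ± 0.19, and Nfil3 was lower, at -1.61 ± 0.31 (SE). These 3 of the 10 were past the limma threshold, beside 28.5% of all genes, and in none of the 10 were the groups apart, against 19.4% of all genes (8.45% lower and 11% higher in LH3-AL). Nr1d1 (0.60 ± 0.22), Per3 (0.51 ± 0.21), Hlf (0.47 ± 0.21), Nr1d2 (0.26 ± 0.20), Tef (0.22 ± 0.31), Arntl (0.22 ± 0.29) and Per2 (-0.14 ± 0.30) were not past it. The group mean describes none of the LH3-AL libraries well for Arntl, Tef or Per2, since replicates 1 and 2 lie on one side of it and 3 to 5 on the other. The called genes are parted in the same way. Dbp read 7.78 and 13.3 FPKM in replicates 1 and 2 and 26.2 to 28.4 in replicates 3 to 5. Npas2 read 4.37 and 4.13 against 1.82 to 2.43, and Nfil3 6.06 and 5.57 against 1.68 to 2.59. The median over the 10 was 0.36, against 0.08 over all genes. Dbp left the threshold without LH3-AL replicate 4 (0.85) and Npas2 without LH3-AL replicate 1 (0.53) or 2 (0.55). Nr1d1 entered it without GFP-AL replicate 3 (0.70) or LH3-AL replicate 1 (0.77), and Per3 without GFP-AL replicate 1 or 5 (0.61 each). Nr1d1 also entered it with quantile normalization (0.74). Without the 3 libraries that stood apart Nfil3 alone of the 10 remained past the threshold.

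Outside the 10, the inhibitor Cry1 was lower in LH3-AL at 8.19 ± 1.90 FPKM (SD, n = 5), a log2 change of -0.93 ± 0.13 (SE; limma adjusted p = 1.78e-04), with no overlap. Its LH3-AL libraries read 7.07, 6.88, 9.93, 6.52 and 10.6 FPKM, so the split of Arntl was not repeated in Cry1. Per1 fell by 0.85 ± 0.21 (adjusted p = 0.00878); it read 10 and 12.6 FPKM in LH3-AL replicates 1 and 2, 20.5, 21 and 18 in replicates 3 to 5, and 20.8 to 44 in GFP-AL. Bhlhe40 fell by 1.03 ± 0.19 (adjusted p = 0.00164). Clock (0.43 ± 0.16, adjusted p = 0.0505) and Ciart (-0.73 ± 0.26, adjusted p = 0.0513) missed the threshold by little. Clock passed without GFP-AL replicate 1, 3, 4 or 5 (0.24 to 0.51) and Ciart without GFP-Veh replicate 2, GFP-AL replicate 2 or 4 or LH3-AL replicate 5 (-0.90 to -0.73). Ciart also passed with median-of-ratios scaling or quantile normalization (-0.79 each) and without the 3 libraries that stood apart (-0.71). Of the 10 tested core genes 3 fell and none rose, beside 11.4% of all genes called lower and 17% called higher.

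Modifiers moved both ways in LH3-AL: 3 of 11 fell and 3 rose. The casein kinase genes Csnk1d (-0.53 ± 0.11, limma adjusted p = 0.0028) and Csnk1e (-0.36 ± 0.08, adjusted p = 0.00471) and Timeless (-0.79 ± 0.17, adjusted p = 0.00316) were lower. Btrc, which encodes an F-box protein that marks PER for destruction (0.34 ± 0.10, adjusted p = 0.0179), Nono (0.26 ± 0.08, adjusted p = 0.0289) and Gsk3b (0.32 ± 0.11, adjusted p = 0.0377) were higher. Of 7 outputs Tspan4 (-0.90 ± 0.18, adjusted p = 0.00211) and the glucocorticoid-induced Tsc22d3 (-0.86 ± 0.28, adjusted p = 0.0305) fell. The 28 tested genes thus gave 3 higher and 8 lower, 11 in all, beside 28.5% of all genes, with a median of 0.07. Nono lost its call without GFP-AL replicate 2 or 3 or LH3-AL replicate 1, 3, 4 or 5 (0.20 to 0.26), and Gsk3b without those or GFP-AL replicate 5 (0.27 to 0.33). Tsc22d3 lost it without GFP-AL replicate 3 or LH3-AL replicate 1 or 2 (-0.71 to -0.65). Median-of-ratios scaling ended the calls of Nono (0.19, adjusted p = 0.0929) and Gsk3b (0.25, adjusted p = 0.106), and quantile normalization those of Gsk3b (0.31, adjusted p = 0.0555) and Tsc22d3 (-0.75, adjusted p = 0.06). Fitting these groups alone ended those of Nono (adjusted p = 0.0626) and Tsc22d3 (adjusted p = 0.0516). All 3 also missed the threshold without the 3 libraries that stood apart.

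**Figure D4:**
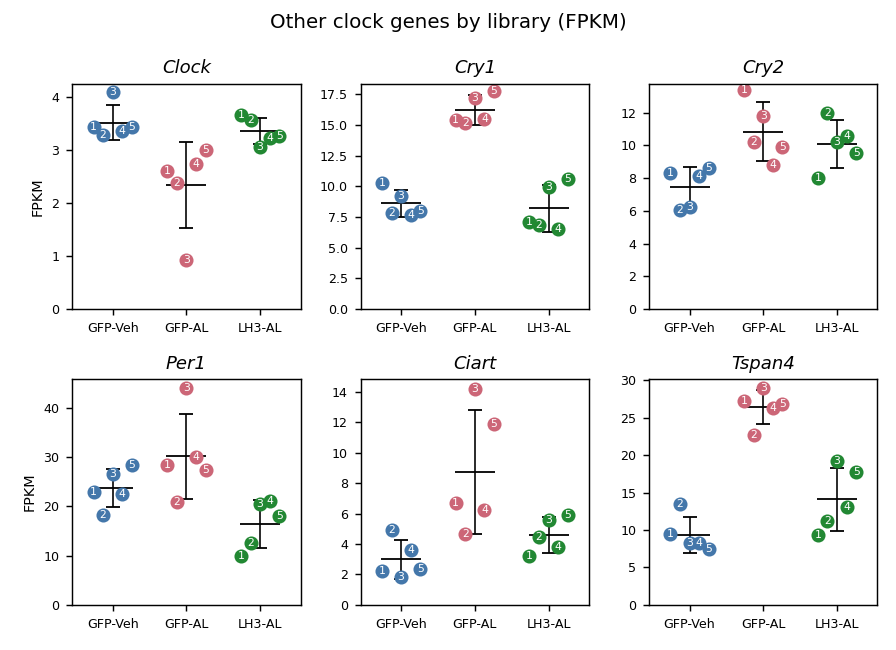
Levels (FPKM, linear axis from 0) of 6 clock genes outside the 10 in the 15 libraries, with replicate numbers in the points and mean ± SD of 5 libraries per group. Cry1 is at 15.2 to 17.8 FPKM in GFP-AL and at 6.52 to 10.6 in the other groups, and Per1 in LH3-AL replicates 1 and 2 is the lowest of all libraries at 10 and 12.6.

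LH3-AL against GFP-Veh compared mice that differ in both virus and drugs. Dbp was higher by 1.78 ± 0.29 and Nr1d1 by 1.06 ± 0.22 (SE), 2 of the 10 past the limma threshold, beside 0.52% of all genes. In Dbp, Nr1d1 and Hlf (0.54 ± 0.21) every LH3-AL library lay above every GFP-Veh library, as in 2.06% of all genes (4.67% in either direction). Tef (1.25 ± 0.31) and Arntl (-0.94 ± 0.29) were not past the threshold, nor were Per2 (0.67 ± 0.30), Nfil3 (-0.67 ± 0.31), Nr1d2 (0.54 ± 0.20), Per3 (0.53 ± 0.21) and Npas2 (-0.42 ± 0.19). Nr1d1 left the threshold in 12 of the 15 fits that leave out 1 library (0.90 to 1.13), keeping it only without GFP-AL replicate 2 or 3 or LH3-AL replicate 1; it also left it with no filter on low values (1.06) and with median-of-ratios scaling (1.08). Arntl entered it without LH3-AL replicate 1 (-1.21). With log2 depth as a covariate neither Dbp (1.36) nor Nr1d1 (0.78) was past it. Of the 28 tested genes outside the 10 limma called 0, and 4 had an unadjusted p under 0.05 (Cry2, Csnk1e, Per1 and Tspan4), beside 9.02% of all genes. No other tool was run. Cry1 (-0.08 ± 0.13), Clock (-0.05 ± 0.16) and Bhlhe40 (-0.06 ± 0.19) were near 0. Csnk1e (-0.32 ± 0.08, adjusted p = 0.108) passed without GFP-AL replicate 3 (-0.32, adjusted p = 0.0418), in a fit of these groups alone (adjusted p = 0.0396) and once the 3 outlying libraries (GFP-AL replicates 2 and 3, GFP-Veh replicate 2) were left out (-0.33, adjusted p = 0.0196).

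The authors' deposited table for GFP-AL against GFP-Veh lists Tef (1.11), Nfil3 (1.15), Arntl (-1.19) and Npas2 (-1.49) with these log2 fold changes. The authors' deposited table named for LH3-AL against GFP-Veh lists Dbp (1.2), Nfil3 (-1.83), Npas2 (1.01) and Cry1 (-1.0). All 1746 genes of that authors' deposited table have the sign of LH3-AL against GFP-AL in the group means (100%), while 58.8% have the sign of LH3-AL against GFP-Veh, so its values belong beside the former comparison.

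Genes whose level tracked the index within groups were ranked by Pearson correlation over the 15 libraries after group means were subtracted, among 7108 genes whose mean reached 5 FPKM. This is a description of likeness, since the libraries share a preparation and those of LH3-AL fall apart into separate levels. The most alike were Sdc3, a syndecan (0.91), Aqp11, an aquaporin (0.89), Adipor2, an adiponectin receptor (0.88), and Slc7a5, the large neutral amino acid transporter of brain endothelium (0.87). Hif3a (0.86), Nek7 (0.86), Ranbp9 (0.85) and Sorbs3 (0.85) came next, and Per1 stood at rank 15 (0.82). Slc7a5 read 174 and 175 FPKM in LH3-AL replicates 1 and 2 and 379.9, 418 and 399.7 in replicates 3 to 5. In GFP-AL it was 103 FPKM in replicate 2 and 221 to 321 in the others, so the library with the lowest index of that group was again lowest. Without LH3-AL replicates 1 and 2, the farthest from the median, the 8 correlations were 0.76 to 0.86, and over the 10 GFP-Veh and GFP-AL libraries 0.58 to 0.81.

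At the opposite end were Nudcd3 (-0.91), Leo1 (-0.87), the immediate early genes Nr4a1 (-0.87), Arc (-0.85), Jun (-0.84) and Fos (-0.81), the homeobox gene Hlx (-0.84) and Cyr61, a matrix protein gene (-0.82). Nr4a1 read 219 and 101 FPKM in LH3-AL replicates 1 and 2 and 13, 15.1 and 15.6 in replicates 3 to 5. Fos read 50.2 and 29.6 FPKM in the former and 2.76, 2.44 and 1.76 in the latter. Immediate early genes respond within minutes to stimulation and handling, and they were high in the LH3-AL libraries in which Arntl was high. In GFP-Veh and GFP-AL, where Arntl was high and low, they had no common order. Fos read 8.51 to 16.8 FPKM in GFP-Veh and 8.99 to 59.7 in GFP-AL, and Nr4a1 73.2 to 117 and 45.7 to 133. Arc read 4.42 to 7.5 and 2.15 to 23.8 FPKM, and Jun 75.2 to 130.3 and 52.6 to 80.6. Over the 10 GFP-Veh and GFP-AL libraries the correlation was weaker for Fos (-0.28), Nr4a1 (-0.33), Jun (-0.34) and Hlx (-0.16). The likeness of those genes therefore rests on LH3-AL. It was -0.46 for Cyr61, -0.66 for Leo1, -0.80 for Arc and -0.87 for Nudcd3. Arc and Nudcd3 stood out in GFP-AL replicate 2, the library with the lowest index of its group. Arc read 23.8 FPKM there and 2.15 to 7.5 in the other GFP-Veh and GFP-AL libraries. Nudcd3 read 8.89 FPKM there and 3.89 to 6.1 in the others. Whether stimulation or handling has a part in the clock gene levels was not tested.

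Glucocorticoid hormone follows the day and acts on clock genes, so its target Fkbp5 is given beside them. It read 1.44 to 6.59 FPKM in GFP-Veh and 14.4 to 23.9 in GFP-AL, and rose by 2.3 ± 0.44 (limma adjusted p = 0.00138). In LH3-AL it was 2.33 and 1.85 FPKM in replicates 1 and 2 and 14.1, 12.8 and 9.11 in replicates 3 to 5, the same parting as in Dbp. With group means subtracted, its correlation with the index was 0.76 over the 15 libraries. Over the 10 GFP-Veh and GFP-AL libraries it was 0.09, so the likeness rests on LH3-AL. Of other glucocorticoid-response genes, Sult1a1 (0.8 and 0.59), Zbtb16 (0.7 and 0.34) and Klf9 (0.69 and 0.64) tracked the index over the 15 libraries too. The likeness of Zbtb16 was weaker without LH3-AL. Sult1a1 and Klf9 were lowest of GFP-AL in replicate 2, at 17.9 and 27 FPKM. The other GFP-AL libraries read 42.6 to 57.2 and 41.9 to 52.6 FPKM. Sgk1 (0.17 and -0.09) tracked it little, and Errfi1 (-0.44 and -0.63) ran the other way. Of 7 tested glucocorticoid-response genes 3 rose in GFP-AL (Fkbp5, Sgk1 and Errfi1), beside 10.8% of all genes, and none fell. The same 3 fell in LH3-AL against GFP-AL (-1.3, -1.23 and -1.47; limma adjusted p = 0.0364, 4.31e-04 and 2.85e-04), beside 11.4% of all genes, of which Fkbp5 was lost without any 1 of GFP-AL replicates 2 to 5 or LH3-AL replicates 1 and 2 (-1.35 to -0.97). The Fkbp5 call was also lost with no filter on low values (limma adjusted p = 0.055), with these groups fitted alone (0.0562) and after leaving out those 3 outlying libraries (0.141). The cold-induced RNA-binding genes Cirbp (1.04 ± 0.19, adjusted p = 0.00123) and Rbm3 (0.55 ± 0.11, adjusted p = 0.00253), which cycle with body temperature, also rose in GFP-AL. Both fell in LH3-AL against GFP-AL (-0.57 ± 0.19 and -0.43 ± 0.11; limma adjusted p = 0.0375 and 0.0115). The Cirbp call there was lost without any 1 of GFP-AL replicates 1 and 3 or LH3-AL replicates 1, 3, 4 and 5 (-0.57 to -0.39), with no filter (adjusted p = 0.0529), with quantile normalization (0.0604), with these groups alone (0.0763) and with the same 3 libraries left out (0.0992). In LH3-AL Rbm3 read 8.3 and 8.28 FPKM in replicates 1 and 2 and 6.84, 7.02 and 9.26 in replicates 3 to 5, which overlap. The part of hormone or temperature in the clock gene levels was not tested.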

How the data were processed

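The authors deposited FPKM values (fragments scaled by transcript length and library size) in 1 table, per the file headers, of 22557 genes and 15 libraries, and STAR 2.5.1b and mm8 are named per the submitters' processing notes; the sources do not name the counting step. Of the deposited values 5.99% lie below 0 (lowest -0.465) and none is exactly 0; negatives were set to 0. The authors' deposited tables give log2 fold changes with p-values and q-values for 2 contrasts. Rows sharing a symbol (31) were summed. Groups were taken from the titles.

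Limma 3.58.1 in R 4.3.3 was fitted to log2(FPKM + 1) with a pseudocount of 1, over all 15 libraries, with an intensity trend, on the 13082 genes whose mean reached 1 FPKM; Benjamini-Hochberg adjustment ran over all of them, with calls below 0.05. All 10 clock genes passed this filter. The pseudocount shrinks differences of genes with low FPKM. Exon lengths (GENCODE M21, 22419 genes matched) times FPKM were whole reads within 0.1 often enough to estimate depth, not to run a count test. The fit was tested on simulated data with 200 genes changed in GFP-AL.

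The clock genes and all lists were chosen with earlier results of these data known. Other lists were a core list (11 genes), modifiers (12) and outputs (8); Rorb, Fbxl21 and Ppara were below the filter. The values of 1 core gene are not reported here. Named genes were the 10, Clock, Per1, Cry1, Cry2, called genes of those lists, and the 8 genes at each end of the likeness ranking, leaving out predicted genes and small RNAs. Alternatives were another pseudocount, filter, scaling, fit or set of libraries.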

Additional observations from a re-analysis of the deposited data

Results flagged for a closer look

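Each clock gene and the phase index were checked in each group of 5. A library was flagged if its gap to its nearest neighbour exceeded 0.71 of the group's range. The 33 checks gave 5 flags, more than 1 of them in GFP-AL replicate 2, where chance gives about 1 in 20. The index is made from the same genes, so the checks are not independent and the number of flags cannot be set against that rate. GFP-AL replicate 2 was lowest for Dbp (5.82 FPKM), Hlf (3.06 FPKM) and the phase index (-0.0273). That library also had the highest neutrophil marker sum (3 genes, 843 FPKM, against 94 to 385 in the other GFP-AL libraries), and the part of these cells was not tested. Without it the index difference from GFP-Veh was 1.16 in place of 0.92, and with Nfil3 left out of the index the library stood at 0.6, above the GFP-Veh range. Nfil3 was highest in GFP-Veh replicate 2 (8.01 FPKM), the library with the highest choroid plexus sum. Per3 was lowest in LH3-AL replicate 1 (6.76 FPKM).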

How the results depend on the processing

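Of 2082 refits of 87 gene differences, 1946 kept their side of the threshold, 91 lost it, 45 gained it and 0 called differences changed sign. Genes called in GFP-AL against GFP-Veh numbered 2174 at a mean of at least 5 FPKM and 2357 with log2 depth as a covariate (3737 as reported); in LH3-AL against GFP-AL 2109 at that mean (3723). In LH3-AL against GFP-Veh (68) they were 176 with only these groups fitted, 4 with depth, 31 with the replicate block, 158 without the 3 libraries that stood apart and 27 to 110 without 1 library. Clock genes of the 10 called in GFP-AL against GFP-Veh (4) were 2 with depth, 2 without those 3 libraries and 2 to 6 without 1 library. In LH3-AL against GFP-AL (3) they were 5 with the block, 1 without those 3 and 2 to 4 without 1 library. In LH3-AL against GFP-Veh (2) they were 1 with no filter, 1 with median-of-ratios scaling, 0 with depth and 1 to 3 without 1 library. The 28 other clock genes gave 5 calls without those 3 libraries and 7 to 9 without 1 library in GFP-AL against GFP-Veh (8). They gave 0 in LH3-AL against GFP-Veh, with 1 in a fit of only these groups, 1 without those 3 and 0 to 1 without 1 library. The cause of these shifts was not tested. Median-of-ratios scaling moved the median of all genes from -0.09 to -0.01 in GFP-AL against GFP-Veh. The phase index differences (0.92, 0.66 and 1.59) moved by less than the spread between libraries under the other scalings, pseudocount and sets of libraries, at 0.82 to 1.16, 0.43 to 1.02 and 1.36 to 1.95 without 1 library. With Nfil3 left out of the index, an alternative added after seeing the data, they were 1.6, -0.02 and 1.59, so the second changed sign. Replicate numbers did not pair the libraries: 5 of 15 same-numbered pairs correlated above 0.1, and 4 of 15 libraries correlated best with their own number. The block also brought Dbp and Per2 past the threshold in GFP-AL against GFP-Veh, with Gsk3b, and Nr1d1 and Per3 in LH3-AL against GFP-AL, where Fkbp5 and Cirbp left it.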

Other observations

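Nek7, a mitotic kinase gene that also serves the NLRP3 inflammasome and is among the 8 genes most like the index, had separate levels with none between. It read 1.98 FPKM in GFP-Veh replicate 1, 2.15 in GFP-AL replicate 2, and 1.75 and 1.22 in LH3-AL replicates 1 and 2. The other 4 GFP-Veh libraries read 10.5 to 11.7 FPKM, the other 4 GFP-AL libraries 14.3 to 27 and LH3-AL replicates 3 to 5 14.5 to 19.3. The low libraries come from all 3 groups and include GFP-AL replicate 2, the lowest index of its group, and LH3-AL replicates 1 and 2, the lowest of theirs; GFP-Veh replicate 1 (-0.08) was not the lowest of its own. No label given here sets these 4 libraries apart. Nek7 was named by the ranking, and its separate levels were noticed after its values were seen.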
